A study of Mus musculus with 12 samples.

Results

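Mouse embryonic stem cells (mESCs) after knockdown (KD) of Nsl1, the product of the mouse gene Kansl1 and a member of the NSL (non-specific lethal) complex, were compared with control cells pair by pair. The comparison used 6 of the 12 arrays of the series, namely the 3 arrays labelled shNsl1_B and the 3 arrays labelled shcontrol_B. The labels number the arrays of each group from 1 to 3, and arrays of the same number were taken as a pair, which gave 3 pairs. All 41345 probe sets of the array were used. The tested quantity was the difference shNsl1_B minus shcontrol_B within a pair, on the log2 scale of the deposited signals, so that a difference of -1 stands for a signal at 50% of the control.

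The cells were male E14.wt mESCs of the 129P2/OlaHsd background, grown with serum and leukemia inhibiting factor on CD1 feeder cells and then for a passage without feeders, at passages 26 to 29. Both groups received a pLKO.1 puro lentiviral vector. In shNsl1_B cells it carried a single short hairpin RNA (shRNA) clone against Nsl1, and in shcontrol_B cells it carried the non-target control hairpin. Because only 1 hairpin was used, effects of the loss of Nsl1 and effects particular to that hairpin cannot be told apart. The other 6 arrays of the series, shMsl1_A and shcontrol_A, belong to experiment A and serve here only for their signal levels.

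The NSL complex is a histone acetyltransferase complex that contains the enzyme Mof, encoded by Kat8, and is known for binding the promoters of widely expressed genes. Kansl1 is its scaffold, and Kansl2, Kansl3, Mcrs1, Phf20, Wdr5, Hcfc1 and Ogt are further subunits. A further assembly around Mof, the MSL (male-specific lethal) complex, has Msl1 as its scaffold. In embryonic stem cells Mof is known to be needed for self-renewal.

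Deviations from the group mean were correlated between arrays of the same number, more weakly for replicate 2 (0.326) than for replicates 1 (0.767) and 3 (0.704). The median log2 signal of the shNsl1_B arrays was 5.58, 5.69 and 5.78 for replicates 1, 2 and 3, and that of the shcontrol_B arrays was 5.58, 5.66 and 5.74. Of 8 markers of embryonic stem cells Nanog was the brightest, with a mean log2 signal of 11.75 over the 6 arrays, and Dppa5a was dim, with 5.07. The other 6, Pou5f1, Sox2, Zfp42, Esrrb, Klf4 and Utf1, were above the array medians on all 6 arrays. The 8 feeder fibroblast markers were also present and differed between pairs more than between groups, with an average log2 signal of 7.51, 8.89 and 9.11 in shNsl1_B and of 7.82, 8.67 and 8.77 in shcontrol_B. Their median difference was -0.46 in pair 1, 0.15 in pair 2 and 0.19 in pair 3, but the markers did not move together. Postn had differences of 0.34, 1.46 and 1.56 and Col3a1 had 0.04, 0.41 and 0.61, while Tagln had -0.57, -0.46 and -0.06. A longer list of 39 feeder fibroblast genes had medians of -0.08, 0.08 and 0.18, with 6 genes lower and 8 higher in each pair. The part of these cells in any result below was not tested. With bulk RNA, fewer cells of a type and less RNA per cell cannot be told apart.

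Kansl1 was lower in the KD array of every pair. The brighter of its probe sets (17270621) had log2 signals of 8.47, 8.92 and 9.30 in shNsl1_B and of 9.14, 9.36 and 9.52 in shcontrol_B. The groups overlapped for this probe set, and the differences of -0.67, -0.44 and -0.22 were uneven. The dimmer probe set (17547591) had 6.45, 6.56 and 6.71 in shNsl1_B and 7.33, 7.30 and 7.36 in shcontrol_B, without overlap and with differences of -0.89, -0.73 and -0.65. Probe set 17270621 had a mean difference of -0.45 ± 0.23 (SD, n = 3 pairs), or 73.4% of the control, and 17547591 had -0.76 ± 0.12, or 59.2%. In the paired limma fit over all probe sets the adjusted p was 0.185 and 0.104. The gene whose mouse symbol is Nsl1, a kinetochore gene unrelated to the NSL complex, had 8.24, 8.22 and 8.02 in shNsl1_B and 8.08, 8.23 and 8.20 in shcontrol_B, and its differences changed sign between the pairs.

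**Figure D1:**
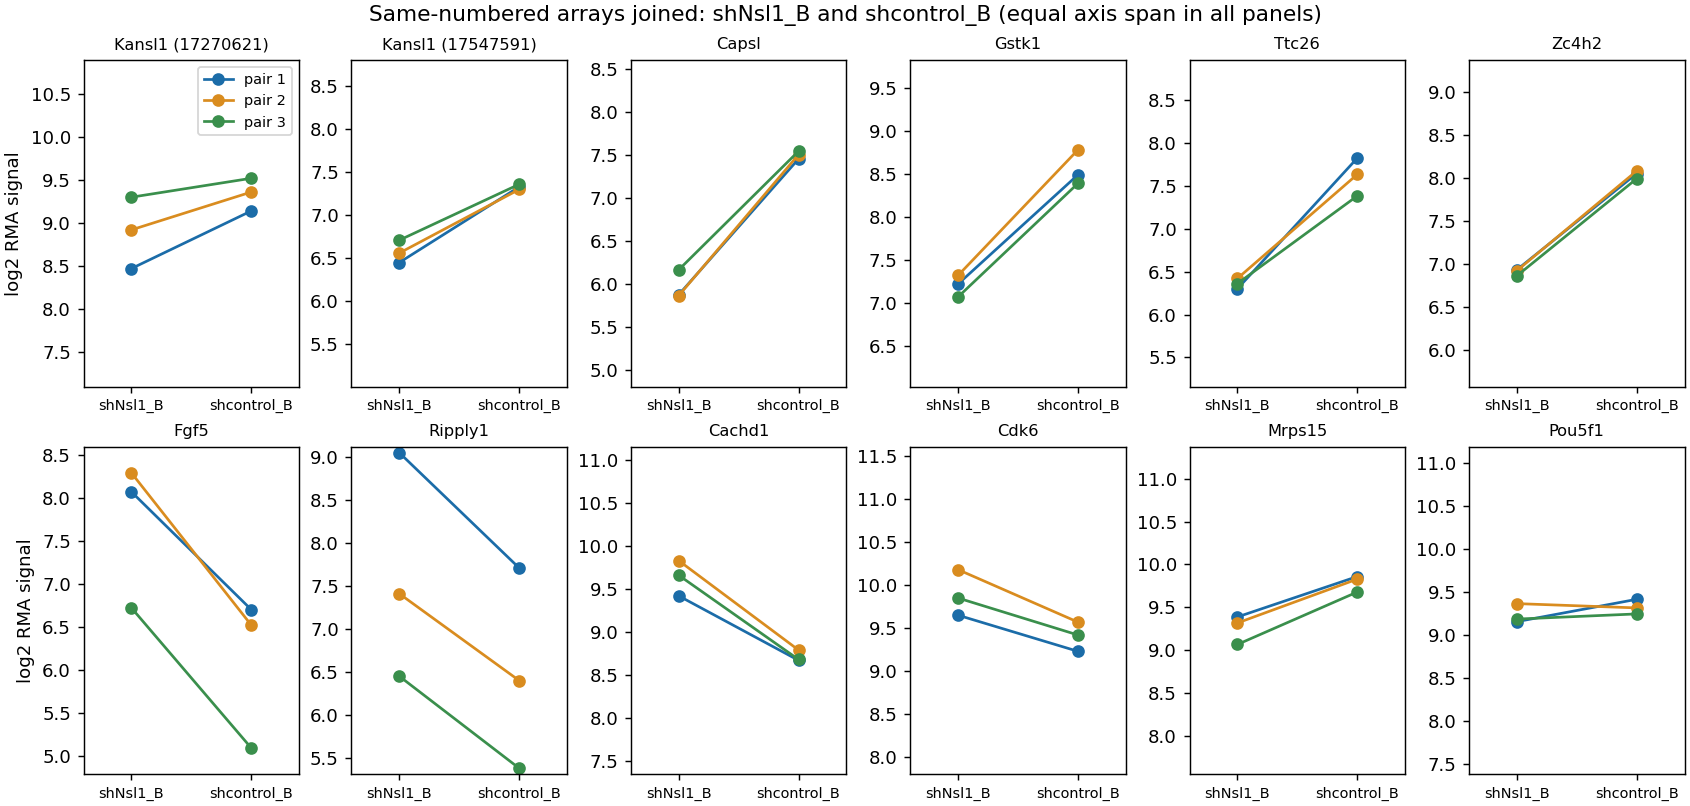
Log2 signal (y axis, the same span in every panel) of 11 genes on the shNsl1_B array (left) and the shcontrol_B array (right) of each pair, joined by a line per pair. Lines of similar slope are differences that agree between pairs, as for Capsl and Gstk1, and Fgf5 and Ripply1 show parallel lines although the replicates lie far apart.

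The remaining NSL subunits did not follow Kansl1. Kansl3 had differences of 0.27, 0.12 and 0.18, and Phf20, which reads methylated lysines, had 0.27, 0.39 and 0.03. Kat8 had 0.10, 0.18 and -0.25, Kansl2 had -0.16, 0.21 and 0.10, and Mcrs1 had 0.21, -0.19 and -0.10. Wdr5, Hcfc1 and Ogt stayed between -0.08 and 0.16 in every pair. The lowest paired limma adjusted p among them was 0.369, for Kansl3. Among the subunits of the MSL complex, Msl1 had 9.17, 9.02 and 9.0 in shNsl1_B and 8.84, 8.64 and 8.79 in shcontrol_B, higher in each pair and without overlap (adjusted p = 0.202). Msl2, a ubiquitin ligase subunit, had differences of 0.10, 0.31 and 0.14. Msl3, the chromodomain subunit, had -0.41, -0.41 and -0.50 (adjusted p = 0.134).

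Across all probe sets the pairs were related but far from identical. The difference had an SD of 0.30, 0.27 and 0.31 over the probe sets in pairs 1, 2 and 3, and medians of -0.003, 0.011 and 0.009. Its correlation across probe sets, which are not independent replicates, was 0.25 between pairs 1 and 2, 0.207 between pairs 1 and 3 and 0.305 between pairs 2 and 3. In all 3 pairs 7362 probe sets were lower and 7703 were higher in the KD arrays, while 26280 changed sign. Paired limma called none of the 41345 probe sets at an adjusted p of 0.05 (0.0%), with a smallest adjusted p of 0.0845. The number at an unadjusted p below 0.05 was 6146 in the paired fit (14.9%), where 2067 would be expected by chance. It was 2175 in the fit that ignored the pairs (5.26%), close to that expectation. The count of calls turned on which probe sets entered the fit. Refitted on the 23521 probe sets with a single gene symbol it was 1359, of which 1004 were lower and 355 higher in shNsl1_B, and on the brighter probe sets it was 71. Adjusted p-values below are from the fit over all probe sets unless the fit on named probe sets is mentioned. An exact sign permutation over 3 pairs cannot go below p = 0.25, two-sided, and was not used.

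Genes were described by how well their pairs agreed. Agreement was taken as the same sign in all 3 pairs, a smallest difference of at least 0.5 and a largest difference of at most 2 times the smallest. By this rule 234 probe sets were lower (0.566% of all) and 65 were higher (0.157% of all) in the KD cells. Their adjusted p lay between 0.0845 and 0.136 for the lower and between 0.0845 and 0.134 for the higher. In the fit on named probe sets, which used the same arrays, all 183 lower and 32 higher probe sets with a single symbol passed. The rule picks steady differences on these arrays, so these passes are no separate support. Adjusted over the named probe sets alone, the limma p-values of the fit over all probe sets gave 9 calls. Of the lower probe sets 39 had no gene symbol and 12 had several, and of the higher ones 33 had none. The median difference was -0.78, -0.73 and -0.73 for the lower set in pairs 1, 2 and 3, and 0.74, 0.76 and 0.77 for the higher set. Counted with 1 probe set per gene, 181 of 22180 genes were lower (0.816%) and 32 were higher (0.144%).

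The lower and the higher set differed in whether the pairs were needed to see them. In 206 of the 234 lower probe sets all shNsl1_B arrays lay below all shcontrol_B arrays, against 5.64% of all probe sets. In 29 of the 65 higher probe sets all shNsl1_B arrays lay above all shcontrol_B arrays, against 4.66% of all probe sets. These counts come from the contrast that chose the sets and are given as a description. Over both sets together, the median standard error (SE) was 0.09 in the paired fit and 0.18 in the unpaired fit. Over all probe sets it was 0.09 and 0.14. The rule limits the spread between pairs, which favours a small paired SE, and the pooled values do not compare the lower with the higher set.

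**Figure D2:**
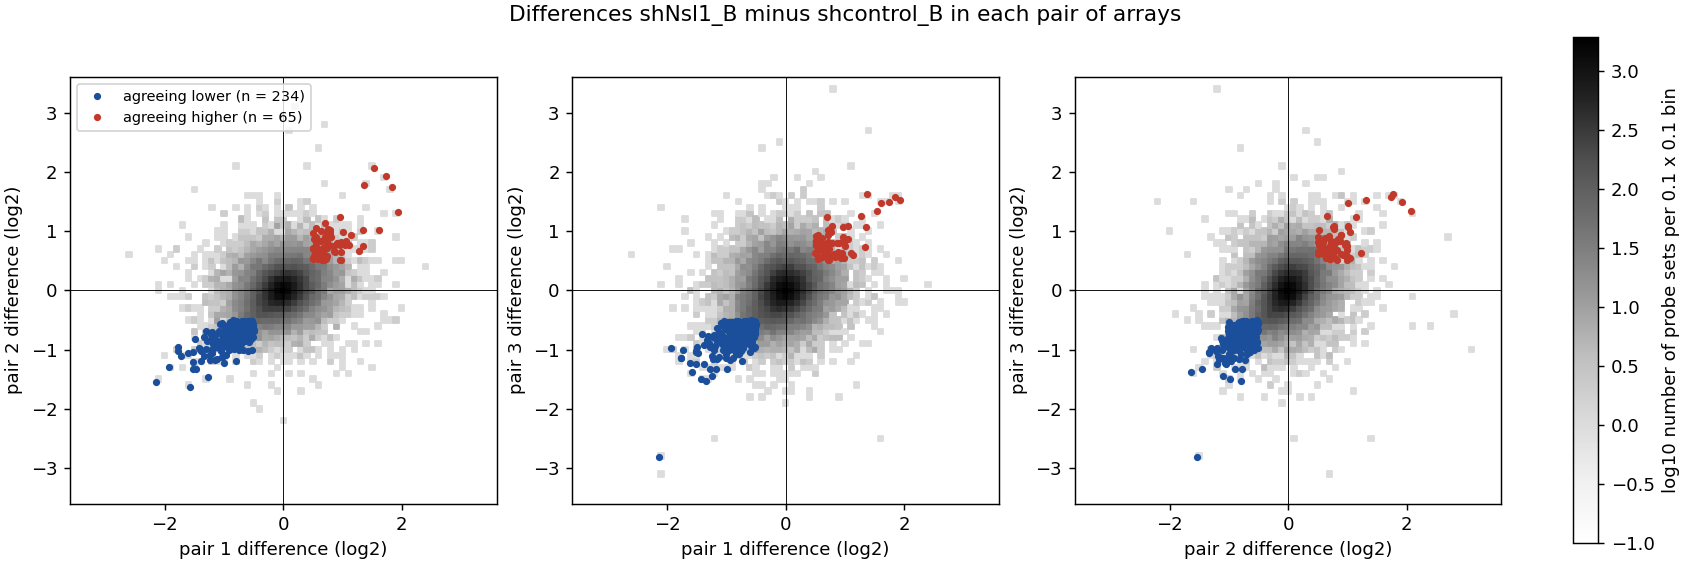
Difference shNsl1_B minus shcontrol_B (log2) of every probe set in one pair (x axis) against another (y axis), in bins of 0.1 shaded by the number of probe sets, with the 234 agreeing lower (blue) and 65 agreeing higher probe sets (red). The agreeing probe sets lie along the diagonal by the rule that chose them, and the lower ones outnumber the higher.

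The same rule was also applied to 2 pairs and read in the remaining pair. More of the probe sets chosen as lower kept their sign there than of those chosen as higher. Of 418, 430 and 436 probe sets chosen as lower without pairs 1, 2 and 3, 88.8%, 90.5% and 87.8% were also lower in the pair left out, against 50.4%, 47.5% and 48.4% of all probe sets. Their median there was -0.60, -0.54 and -0.55. Of 351, 274 and 247 probe sets chosen as higher, 62.1%, 71.2% and 75.3% were higher in the pair left out, against 49.5%, 52.4% and 51.6% of all probe sets, with medians of 0.15, 0.27 and 0.30. The left-out medians of the lower choice thus stayed close to those in the choosing pairs, which were -0.69, -0.70 and -0.72. Those of the higher choice were well below the 0.72 seen in the choosing pairs. Probe sets are not independent replicates, and each of these readings rests on 1 pair of arrays. The agreeing sets from all 3 pairs also differed in signal, with medians in shcontrol_B of 7.76 for the lower and 6.1 for the higher. The part of signal in the contrast between the directions was not tested.

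The genes with the steadiest decrease had diverse roles. Capsl, a calcium-binding protein related to calcyphosine, had 5.87, 5.86 and 6.16 in shNsl1_B and 7.45, 7.50 and 7.54 in shcontrol_B, a mean difference of -1.53 ± 0.13 (SD, n = 3 pairs) or 34.5% of the control. Gstk1, the kappa-class glutathione S-transferase of mitochondria and peroxisomes, had 7.22, 7.32 and 7.07 in shNsl1_B and 8.49, 8.78 and 8.39 in shcontrol_B. Arpin, an inhibitor of the Arp2/3 actin nucleator, had 7.01, 6.94 and 7.19 in shNsl1_B and 8.38, 8.14 and 8.44 in shcontrol_B. Each of them was at least 1.20 lower in every pair. Zc4h2, a zinc finger gene of neural development, showed almost the same loss in each pair, at -1.12, -1.16 and -1.13, and so did Enpp5, of the ectonucleotide pyrophosphatase family, at -1.15, -1.17 and -1.16. Atg4a, a protease that processes Atg8 proteins in autophagy, had -1.24, -1.18 and -1.11.

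The other genes among the 12 steadiest lower ones spread more between pairs. Pcbd1, an enzyme of tetrahydrobiopterin recycling, had differences of -1.24, -1.10 and -1.45. Tbc1d19, of the Rab GTPase-activating family, had -1.48, -1.33 and -1.06, and the zinc finger gene Zfp772 had -1.52, -1.33 and -1.04. Tmem141, a membrane protein gene, had -1.61, -1.06 and -1.22. Ttc26, a subunit of the intraflagellar transport machinery, had 6.30, 6.42 and 6.36 in shNsl1_B and 7.82, 7.63 and 7.38 in shcontrol_B. Cpn1, the catalytic chain of carboxypeptidase N, spread the most, with -1.77, -1.03 and -1.14. All 12 had no overlap between the groups, with adjusted p between 0.0845 and 0.104. They were chosen by their smallest pair difference on the same arrays, which favours both, so these values are a description.

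Among the genes with the steadiest increase, Fgf5, Ripply1, Slc27a2 and St6gal2 varied strongly between replicates. Fgf5, a growth factor known as a marker of the primed epiblast, had 8.07, 8.29 and 6.72 in shNsl1_B and 6.70, 6.52 and 5.09 in shcontrol_B. Replicate 3 was the lowest in both groups, yet the differences of 1.37, 1.77 and 1.63 agreed, a mean of 1.59 ± 0.20 (SD, n = 3 pairs) or 3.01-fold (adjusted p = 0.0845). Ripply1, a repressor known from somite formation, had 9.05, 7.41 and 6.45 in shNsl1_B and 7.71, 6.40 and 5.38 in shcontrol_B. Its groups overlapped broadly, and each KD array was at least 1.01 above its own control. Slc27a2, which activates very long chain fatty acids, had 10.16, 9.91 and 9.01 in shNsl1_B and 9.46, 8.77 and 7.78 in shcontrol_B. A dimmer probe set of Slc27a2, with a mean log2 signal of 4.6, had differences of 0.0, 0.15 and 0.17. For St6gal2, a sialyltransferase, the differences were 0.71, 0.90 and 0.94, again with overlapping groups.

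Among the other steadiest higher genes, Cachd1, Hhip, Pltp and Ms4a10 had groups without overlap. Cachd1, which is related to calcium channel subunits, had 9.42, 9.83 and 9.66 in shNsl1_B and 8.67, 8.79 and 8.68 in shcontrol_B. Hhip, which binds and restrains Hedgehog ligands, had 6.55, 5.89 and 5.67 in shNsl1_B and 5.20, 5.14 and 4.94 in shcontrol_B. Pltp, the phospholipid transfer protein, had differences of 0.69, 0.69 and 0.61. These had adjusted p-values of 0.0865, 0.12 and 0.104. The lysophosphatidic acid receptor Lpar4 had 0.67, 0.72 and 0.78, the cadherins Cdh9 and Cdhr1 had 0.97, 0.81 and 0.83 and 0.57, 0.71 and 0.75, and the membrane gene Ms4a10 had 1.11, 0.76 and 0.63. Ahnak2 had 0.86, 0.66 and 0.58. The groups overlapped for Lpar4, Cdh9, Cdhr1 and Ahnak2. Just inside the size limit lay Gmppa, with a smallest difference of -0.50, and Ebf1, with 0.51. Just outside it lay Rbsn, which also reads -0.50 when rounded, and Pdzd2, with 0.49.

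Among the agreeing higher probe sets were those of a microRNA cluster, Mir302b, Mir302c, Mir302a, Mir302d and Mir367, and Mir302c, Mir302d and Mir367 had the largest mean differences of the 65. Small RNAs are outside the rule by which genes were named, so these 5 were chosen after their values were seen. The cluster is known to be active in pluripotent cells, where its products repress inhibitors of the cell cycle. It lies within 580 bases of chromosome 3, on the plus strand, and within the span of Larp7, which is on the other strand. The probe sets for these genes were taken to report the unprocessed transcript rather than the mature microRNA. Mature products from RefSeq (GRCm38.p6) are shown so that their seeds, bases 2 to 8 in capitals, can be compared:
miR-302b-3p (chr3:127545275-127545297, plus strand): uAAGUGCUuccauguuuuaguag
miR-302d-3p (chr3:127545665-127545687, plus strand): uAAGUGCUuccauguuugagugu
miR-302c-3p (chr3:127545406-127545427, plus strand): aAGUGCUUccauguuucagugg
miR-367-3p (chr3:127545779-127545800, plus strand): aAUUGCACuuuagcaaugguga

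By these bases miR-302b-3p and miR-302d-3p share the seed AAGUGCU, the annotated start of miR-302c-3p shifts its seed to AGUGCUU, and miR-367-3p has a seed of another family, AUUGCAC. All 5 genes were higher in the KD array of each pair. Mir302c had 8.95, 9.27 and 7.99 in shNsl1_B and 7.11, 7.53 and 6.40 in shcontrol_B, a mean difference of 1.72 ± 0.13 (SD, n = 3 pairs) or 3.30-fold (adjusted p = 0.0845). Mir302d had 7.08, 7.54 and 6.26 in shNsl1_B and 5.35, 5.62 and 4.77 in shcontrol_B. Mir367 had 5.36, 6.59 and 5.20 in shNsl1_B and 3.81, 4.52 and 3.87 in shcontrol_B. The groups did not overlap for these, and pair 2 was the highest in both groups. Mir302a had 8.29, 8.36 and 6.93 in shNsl1_B and 6.36, 7.04 and 5.41 in shcontrol_B, with overlap. Mir302b had 4.77, 5.05 and 4.47 in shNsl1_B and 3.76, 4.06 and 3.73 in shcontrol_B, with differences of 1.01, 0.99 and 0.74. Mir302b was below the array median in both groups, as were Mir302d and Mir367 in shcontrol_B, so these signals were dim. Larp7, whose product binds the 7SK RNA, had 10.70, 10.43 and 9.91 in shNsl1_B and 10.38, 10.34 and 10.11 in shcontrol_B, with differences that changed sign. Over the 512 probe sets named for a single microRNA gene the median difference was -0.01, 0.07 and 0.11, and 7 agreed as higher and 0 as lower, against 0.157% and 0.566% of all probe sets. Of these 7 probe sets 5 are the cluster genes themselves.

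The cluster also varied between control arrays of the series. Mir302c had 7.63, 5.67 and 6.31 in shMsl1_A and 7.77, 8.42 and 7.02 in shcontrol_A, so the lowest shNsl1_B array lay below 1 of the shcontrol_A arrays. That array, shcontrol_A 2, is one whose Msl1 signal goes against its label, as does that of shMsl1_A 2. Msl1 had 6.77, 9.18 and 7.64 on the arrays labelled shMsl1_A and 8.56, 6.90 and 8.62 on those labelled shcontrol_A. Mir367 had at most 4.13 on any array of experiment A, below each shNsl1_B array.

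**Figure D3:**
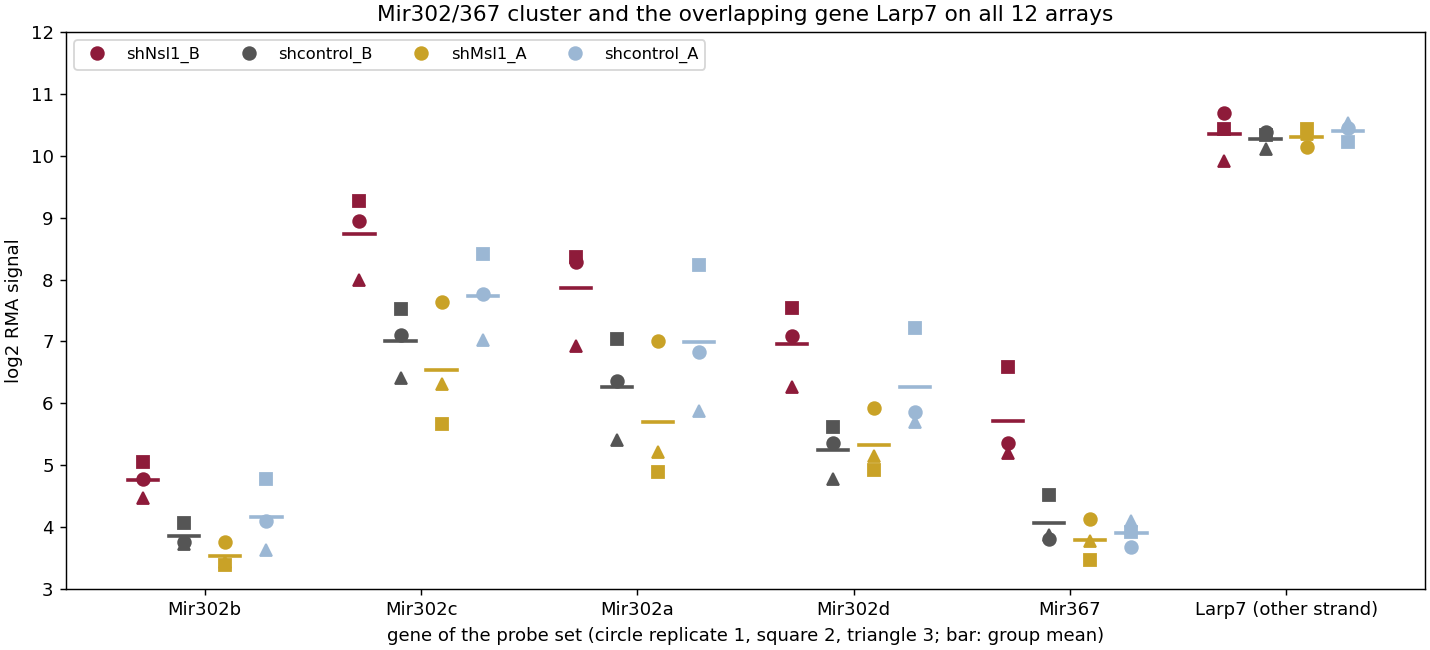
Log2 signal (y axis) of the 5 microRNA genes and of Larp7 on each array of the 4 groups, with shNsl1_B leftmost for each gene and symbols for replicates 1, 2 and 3. The shNsl1_B means of the microRNA genes are above those of the other groups, while the groups overlap for Larp7, and shcontrol_A 2 reaches the shNsl1_B range for Mir302b, Mir302c, Mir302a and Mir302d, as shMsl1_A 1 does for Mir302a.

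Beyond the control arrays of its own experiment, the KD was set beside experiment A. In 202 of the 234 lower probe sets all shNsl1_B arrays were below all shcontrol_A arrays, against 23.5% of all probe sets. In 26 of the 65 higher probe sets all were above them, against 15.9% of all probe sets. Without shcontrol_A 2 the counts were 206 lower and 37 higher, against 27.9% and 19.5% of all probe sets. Beyond all 6 arrays of experiment A lay 185 lower and 14 higher, against 14.4% and 8.2% of all probe sets. Experiment and group cannot be told apart in these values. The counts also reuse the shNsl1_B values that chose the sets, so part of the excess over all probe sets is built in. Capsl had 7.72, 8.19 and 8.31 in shcontrol_A and Gstk1 had 8.72, 8.91 and 8.93 there, both above the shNsl1_B range. Ripply1 and Slc27a2, by contrast, had 7.49, 7.22 and 7.80 and 9.63, 9.71 and 9.69 in shcontrol_A, inside the shNsl1_B range. Fgf5 had 6.88, 7.36 and 6.61 in shcontrol_A, and its lowest shNsl1_B array, at 6.72, lay within that range.

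Genes of the primary cilium were lower in most lists that describe its parts. The cilium is a sensory projection that is built by intraflagellar transport (IFT), in which kinesin-2 and dynein-2 motors carry trains of IFT-B and IFT-A proteins, and the BBSome links membrane cargo to these trains. The transition zone is a gate at its base. Of 60 measured genes in these lists, 46 were lower in all 3 pairs (76.7%) and 1 was higher, where 22.9% of all genes were lower and 18.4% were higher in all 3 pairs. The agreement rule was met by 14 of the 60 (23.3%), against 0.816% of all genes. The median difference of the 60 genes was -0.29, -0.38 and -0.38, and over all genes it was -0.011, 0.000 and -0.014. These lists were chosen with earlier results of these arrays known and are not independent evidence of the direction.

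The BBSome list had medians of -0.34, -0.55 and -0.53. Of its 11 measured genes 8 were lower in all pairs, and Bbs5, Bbs9, Ttc8 and Bbs4, all subunits of the complex, met the agreement rule. Bbs5 had 6.04, 6.23 and 6.29 in shNsl1_B and 6.91, 7.06 and 7.09 in shcontrol_B. Bbs9 had 7.37, 7.27 and 7.54 in shNsl1_B and 8.34, 8.11 and 8.24 in shcontrol_B. Bbs12, a chaperonin-like assembly factor rather than a subunit, was the gene that was higher in each pair, with 0.17, 0.02 and 0.15.

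All 18 IFT-B genes had a mean difference below 0, and 15 were lower in each pair. Beside Ttc26, Ift22 met the agreement rule, with 7.46, 7.17 and 7.14 in shNsl1_B and 8.43, 8.26 and 8.05 in shcontrol_B. Cluap1 had -0.75, -0.43 and -0.51 and Ift88, a core subunit, had -0.43, -0.40 and -0.56. Of 6 IFT-A genes 5 were lower in each pair, led by Wdr19 with 6.80, 6.95 and 7.34 in shNsl1_B and 8.11, 7.94 and 8.12 in shcontrol_B. Ttc21b, Ift43 and Ift122 had smallest differences of -0.39, -0.33 and -0.20.

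Among 9 motor genes 7 were lower in each pair. Kif3a, a kinesin-2 motor subunit, had 6.39, 6.91 and 7.31 in shNsl1_B and 7.31, 7.52 and 7.91 in shcontrol_B, where the groups touched and the pairs differed by -0.92, -0.61 and -0.60. Dync2li1, a dynein-2 light intermediate chain, had -0.91, -0.61 and -0.54. Kif17, a motor that ciliary assembly can do without, had -0.07, 0.21 and 0.30. Of 16 transition zone genes 11 were lower in each pair, and Tmem67, Tctn3, Tctn2, Tmem237 and Rpgrip1l met the agreement rule. Tmem67 had 6.88, 7.57 and 7.74 in shNsl1_B and 8.08, 8.34 and 8.49 in shcontrol_B. Tmem67 and Tctn3 also had dimmer probe sets, with mean log2 signals of 4.03 and 4.08. Their differences were -0.13, 0.09 and 0.01 for Tmem67 and -0.06, 0.27 and -0.03 for Tctn3. Tmem237 was the most even, with 8.0, 8.01 and 7.99 in shNsl1_B and 8.61, 8.84 and 8.53 in shcontrol_B.

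**Figure D4:**
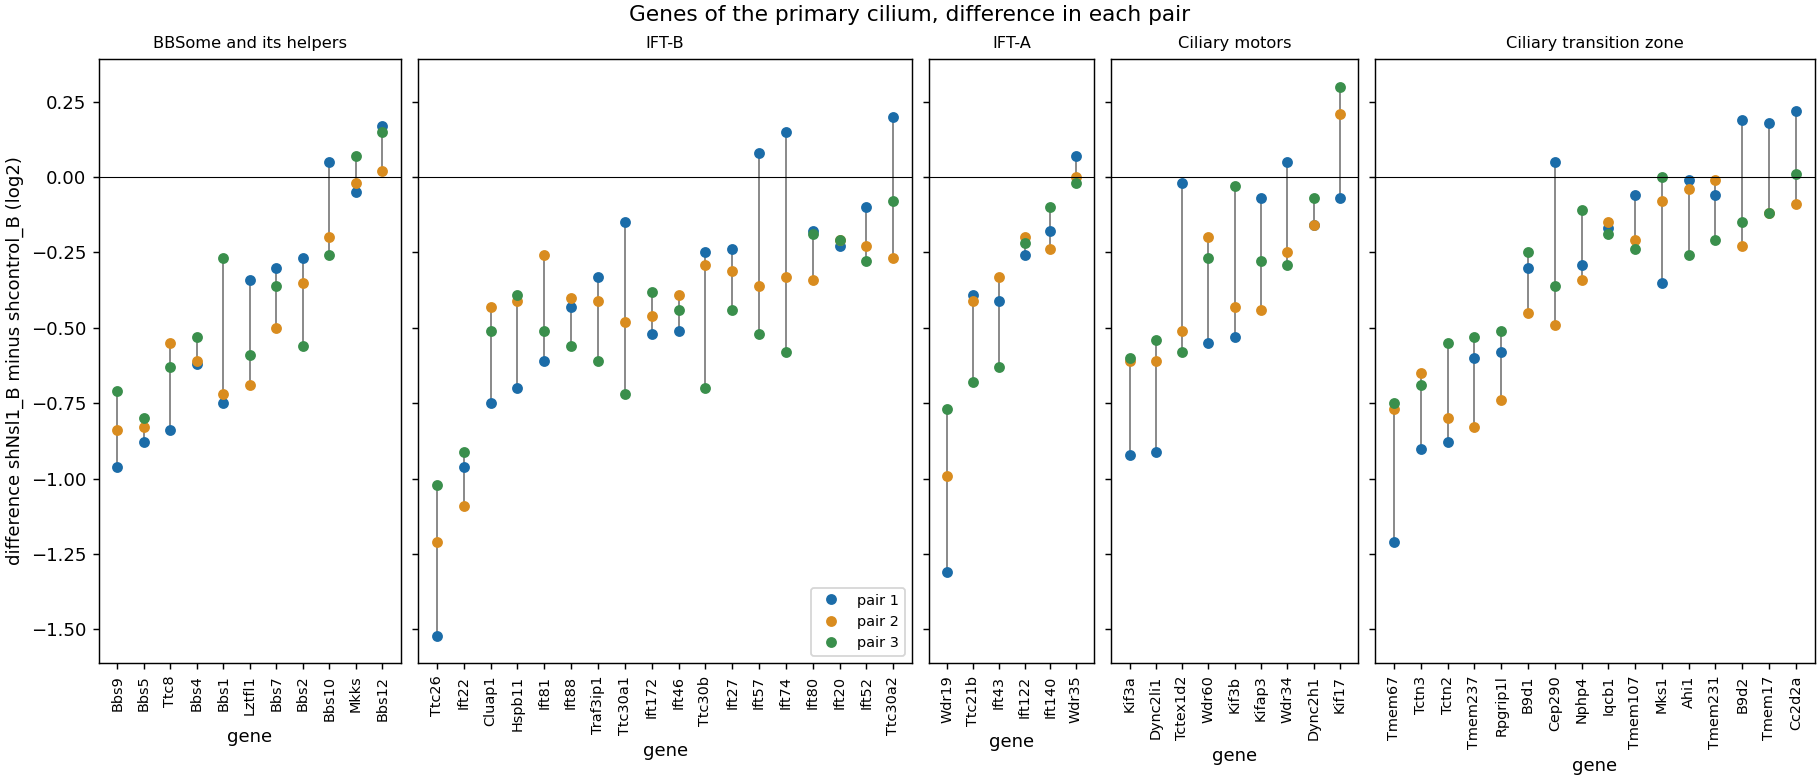
Difference shNsl1_B minus shcontrol_B (log2, y axis) in each pair for the measured genes of 5 cilium lists, ordered within a list by the mean. Most genes lie below 0 in each pair, and Bbs12 is above 0 in each pair.

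A list of ciliary transcription factors and GTPases, which also holds Ift22, had 4 of 10 genes lower and 3 higher in each pair, with medians of 0.05, 0.01 and -0.12. Its difference from the other cilium lists was not tested. Rfx3, a regulatory factor X (RFX) protein that activates ciliary genes, was higher in each pair, with 0.49, 0.53 and 0.34, and so was Rfx4, with 0.34, 0.16 and 0.30. Arl3, a small GTPase of the cilium, had -0.42, -0.28 and -0.29, and Rabl2 had -0.37, -0.31 and -0.75. Foxj1, the regulator of motile cilia, had -0.05, 0.13 and -0.13.

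RFX proteins bind the X-box, so RefSeq promoter windows (250 bases before to 50 after a start site, GRCm38.p6) were searched on both strands for its core GTTGCC. It was found in 26 of 60 windows of the cilium lists (43.3%), in 37 of 171 windows of the agreeing lower genes (21.6%) and in 2575 of 20520 windows of all measured genes (12.5%). Among the lower genes outside the cilium lists it was in 31 of 157 windows (19.7%). Among the agreeing lower genes of the cilium lists it was in 6 of 14 windows (42.9%), close to the 43.3% of those lists. Windows were available for 145 of the 181 lower genes, and their median GC content was 55.3%, against 56.7% for all measured genes. The windows of the cilium lists had a higher median GC content, 59.7%. Some genes have several windows, and no test was made of these shares. A match is a description of the letters and not a binding site. Stretches of 60 bases before the start site are shown for the 4 agreeing cilium genes with the half-site in that part, in capitals:
Ttc26 (chr6:38381464-38381523, plus strand): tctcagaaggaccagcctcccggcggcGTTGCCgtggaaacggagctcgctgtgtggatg
Tctn3 (chr19:40612339-40612398, minus strand): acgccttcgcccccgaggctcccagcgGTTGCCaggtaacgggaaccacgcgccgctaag
Kif3a (chr11:53567244-53567303, plus strand): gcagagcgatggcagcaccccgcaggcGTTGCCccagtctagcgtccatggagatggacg
Tmem237 (chr1:59120097-59120156, minus strand): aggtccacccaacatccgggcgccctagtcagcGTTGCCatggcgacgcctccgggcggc

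In Ttc26, Tctn3, Kif3a and Tmem237 the half-site began 33, 140, 98 and 27 bases before the start site. A longer stretch of the X-box, GTTGCCATG, was in 3 of the 171 windows of the lower genes (1.75%) and in 0.726% of those of all measured genes. Of the other 8 motifs searched, CCGGAAG, the core of ETS sites, was in 18.1% of the windows of the lower genes and 11.4% of all, and ACTACAATT, part of the Zfp143 site, was in 2.92% and 0.521%. GCATGCGC, a core bound by nuclear respiratory factor 1, was in 5.26% and 3.64%, AAGATGGCG, a Yy1 site, in 2.92% and 1.86%, and TGACGTCA, the cyclic AMP response element, in 4.68% and 2.32%. TGACNNNGC, the antioxidant response core, was in 12.3% and 13.1%, TGATGCAA in 0.585% and 0.76%, and TCGCGAGA in 0.0% and 1.35%.

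Peroxisome genes and glutathione S-transferases were also more often lower than higher. Over all genes, 22.9% were lower and 18.4% were higher in all 3 pairs. Of 21 peroxisome genes 12 were lower in each pair and 1 was higher, with medians of -0.13, -0.20 and -0.32. Scp2, a sterol carrier and thiolase, had 6.84, 6.87 and 6.96 in shNsl1_B and 7.47, 7.52 and 7.70 in shcontrol_B. Hsd17b4, of peroxisomal fatty acid oxidation, had 8.23, 8.29 and 8.12 in shNsl1_B and 8.82, 8.84 and 8.81 in shcontrol_B. Pex3, needed to insert peroxisomal membrane proteins, also met the agreement rule, and Abcd3, a fatty acid transporter, was the gene that was higher, at 0.23, 0.01 and 0.01.

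Of 20 glutathione S-transferases, enzymes that couple glutathione to toxic compounds, 12 were lower in each pair and 0 were higher, with medians of -0.12, -0.12 and -0.22. Beside Gstk1, Gstt3 had 5.45, 5.60 and 5.56 in shNsl1_B and 6.51, 6.45 and 6.57 in shcontrol_B. Gstm4 had -1.49, -0.83 and -0.95, and Gstm2 had -1.59, -0.54 and -0.62, a loss that was largest in pair 1. The Gstm genes are close copies of each other, and how far their probes tell them apart was not tested. Targets of Nrf2, which controls many of these enzymes, did not follow, with 5 of 22 lower and 3 higher in each pair and medians of 0.08, 0.03 and -0.08.

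The mitochondrial ribosome had many small decreases and no gene that met the agreement rule. Of its 69 genes 43 were lower in each pair and 1, Mrps18b, was higher, against 22.9% and 18.4% of all genes. The medians were -0.09, -0.22 and -0.35, so the pairs differed in size, with pair 3 the lowest. Mrps15 had 9.39, 9.32 and 9.07 in shNsl1_B and 9.86, 9.83 and 9.68 in shcontrol_B, without overlap (adjusted p = 0.117). Mrpl55 had -0.51, -0.47 and -0.68, Mrpl35 had -0.40, -0.57 and -0.57 and Mrpl37 had -0.38, -0.36 and -0.54. The subunits and assembly factors of respiratory complex I had medians of -0.01, -0.12 and -0.27, and those of complexes II to V had 0.09, -0.11 and -0.20, with a sign that differed between pairs. Pair 3 was also the lowest for DNA replication, at -0.01, -0.03 and -0.21, for mitosis, at 0.02, -0.03 and -0.19, and for replication-dependent histones, at 0.05, -0.15 and -0.29.

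Targets of p53 and of ATF4 and CHOP were more often higher than lower in all 3 pairs. Over all genes, 18.4% were higher and 22.9% were lower in all 3 pairs. Of 29 p53 targets 17 were higher in each pair and 0 were lower, with medians of 0.31, 0.18 and 0.11, and 0 met the agreement rule. Ddit4l had 0.67, 0.33 and 0.32, Pidd1 had 0.60, 0.36 and 0.25, the polymerase Polk had 0.44, 0.21 and 0.33 and the receptor Eda2r had 0.39, 0.19 and 0.33. Cdkn1a, the best known p53 target, had 0.16, -0.01 and -0.16. Of 26 targets of ATF4 and CHOP, transcription factors of amino acid and protein folding stress, 12 were higher and 1 was lower, with medians of 0.11, 0.23 and 0.08. Ddit3, which encodes CHOP, had 0.72, 0.50 and 0.43, and Slc7a11, the cystine importer, had 0.46, 0.68 and 0.39. Vldlr and Nupr1 had smallest differences of 0.21 and 0.22, and Shmt2 was the gene that was lower.

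**Figure D5:**
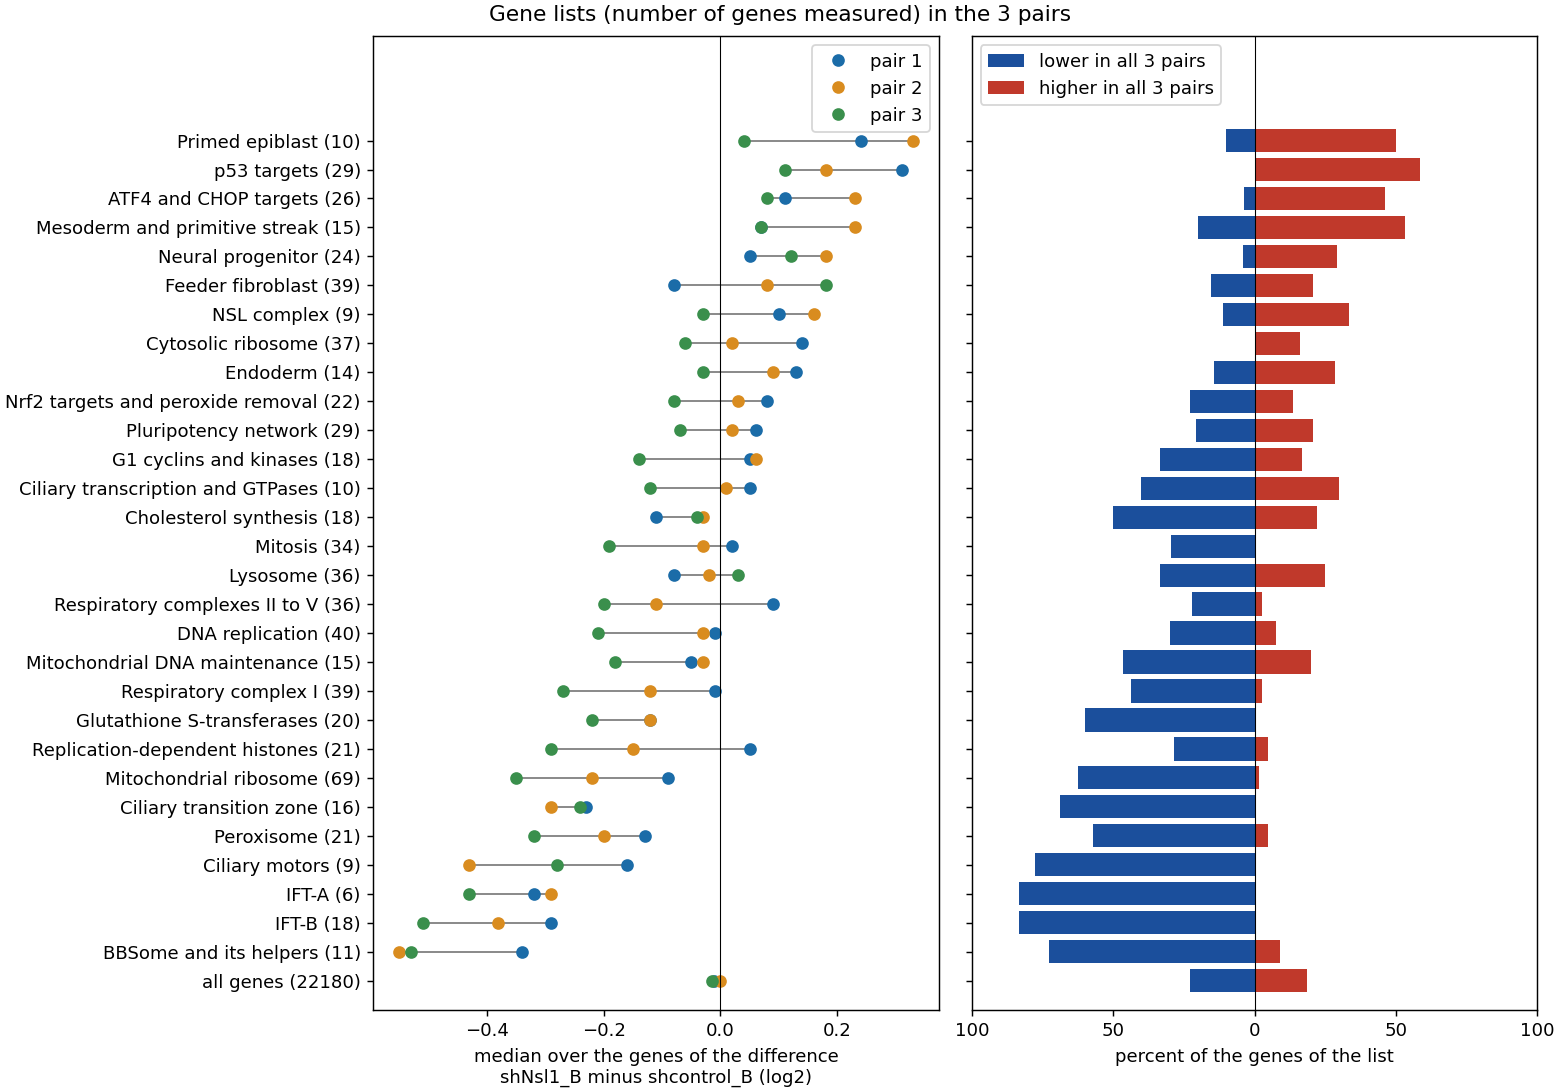
Median difference shNsl1_B minus shcontrol_B (log2, left) of the genes of each list in pairs 1, 2 and 3, and the percent of genes lower or higher in all 3 pairs (right), for the lists with at least 5 measured genes and for all genes. The 3 points of the 5 lists of cilium parts and of the peroxisome and mitochondrial ribosome lists are below 0, those of p53 and of ATF4 targets are above 0, and the points of the pluripotency list lie on both sides of 0.

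Genes of the pluripotent state had differences of both signs, while Fgf5 and 4 further genes of the primed state were higher in each pair. Of 29 genes of the pluripotency network 6 were lower and 6 were higher in each pair, close to the 22.9% and 18.4% of all genes. Pou5f1 had 9.16, 9.37 and 9.19 in shNsl1_B and 9.42, 9.32 and 9.25 in shcontrol_B. Sox2 had 11.59, 11.08 and 11.08 in shNsl1_B and 11.58, 11.02 and 11.34 in shcontrol_B, and Nanog had 11.78, 11.67 and 11.64 in shNsl1_B and 11.84, 11.69 and 11.86 in shcontrol_B. The groups overlapped for these factors, with adjusted p of 0.757, 0.839 and 0.68. Of 10 genes of the primed epiblast 5 were higher and 1 was lower in each pair, with medians of 0.24, 0.33 and 0.04. Beside Fgf5 these were Zic2 with 0.45, 0.56 and 0.45, Sox3 with 0.42, 0.27 and 0.48, Otx2 with 0.21, 0.40 and 0.35 and Lef1 with 0.27, 0.46 and 0.16, all encoding transcription factors, and Cldn6, a tight junction protein, was lower. Cdk6, a kinase of the G1 phase, had 9.65, 10.18 and 9.85 in shNsl1_B and 9.23, 9.57 and 9.42 in shcontrol_B, without overlap (adjusted p = 0.132), while the list of G1 cyclins and kinases had medians of 0.05, 0.06 and -0.14. In the paired limma fit over all probe sets Cdk6, Mrps15 and Sox3 did not pass, with adjusted p of 0.132, 0.117 and 0.164. They passed only in the fit on named probe sets, with adjusted p of 0.0204, 0.0144 and 0.0411.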

How the data were processed

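RNA from 12 arrays (Affymetrix Mouse Gene 2.0 ST, 150 ng of total RNA each) was summarised by the authors in Affymetrix Expression Console 1.1 using RMA (robust multi-array average), which corrects background, normalizes between arrays and summarises probes, so differences are relative to the whole array. The deposited values are log2 signals and were used without a filter or pseudocount. The number of arrays limits the precision. Probe sets were named by the platform annotation, by which 23521 had 1 gene symbol, 1820 several and 16004 none. Scanner files were not used here.

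Differences within pairs were fitted with limma 3.58.1 in R 4.3.3 (replicate number as a block, empirical Bayes moderation) on the 6 arrays of experiment B, and the whole table of 41345 probe sets was adjusted by Benjamini-Hochberg. The replicate numbers of the labels were used as pairs. Deviations from the group mean correlated at 0.767, 0.326 and 0.704 for same-numbered arrays. For differently numbered arrays the correlations lay between -0.705 and 0.153. Deviations from a group mean sum to 0 over the arrays of that group. Negative values for different numbers are therefore partly built in where same-numbered arrays correlate. The methods describe independent biological replicates, while the labels give only their numbers.

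Gene lists (30, with 1 probe set per gene, the brightest) were described by medians and counts. Members, lists and rules were chosen with earlier results of these data known. Genes named were Kansl1 and Nsl1, the 12 steadiest each way by smallest pair difference (named genes, without small RNAs and provisional models), those beside the size limit, up to 4 leading and 2 opposite members per list, the NSL and MSL subunits, Pou5f1, Sox2, Nanog, Sox3, Mrps15 and Cdk6. Foxj1, Rabl2, Rfx4, Cdkn1a, Rpgrip1l, Lef1 and the microRNA genes were added after their values were seen. Motif searches covered 10 motifs. Alternatives were the scaling, the block, filters, size limits, each pair left out, all 12 arrays, and fold change rank ordering statistics (FCROS) over the 3 pairs.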

Additional observations from a re-analysis of the deposited data

How the results depend on the processing

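The count of limma calls was 0 under every scaling, without the replicate block, with an intensity trend, with all 12 arrays and with each pair left out (0 to 0), and 1359 on probe sets with 1 gene symbol, 71 on those above the median signal and 2506 by FCROS, whose limits are not corrected for multiple testing. On the named probe sets limma estimated a prior of 5.82 degrees of freedom, against 3.27 over all probe sets, and the p-values of the fit over all probe sets, adjusted over the named ones alone, gave 9 calls. On the same probe sets Kansl1 passed, at -0.45 (limma adjusted p = 0.0459) and -0.76 (0.00663). Without the replicate block the smallest adjusted p was 0.163, and Kansl1 had -0.45 and -0.76 and did not pass.

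Agreeing probe sets numbered 771 lower and 327 higher with a smallest difference of 0.3, and 15 and 7 with 1. With a ratio of at most 1.5 the higher ones numbered 40, and on named probe sets 32. From 2 pairs, without replicate 1, 2 or 3, the lower ranged from 418 to 436 and the higher from 247 to 351. Beyond shcontrol_A, the higher numbered 14 against all 6 arrays of experiment A, a comparison chosen after seeing the data. The median of the transition zone list ranged from -0.23 to -0.18 and that of the histone list from -0.24 to -0.03 with a pair left out. With a pair left out Sox2 ranged from -0.13 to 0.03, positive without replicate 3, and Larp7 ranged from -0.05 to 0.21, negative without replicate 1. The causes of these differences were not tested. An agreement count without pairs could not be given.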

Other observations

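Other genes among the 234 probe sets that were lower in agreement were chosen for naming after their values were seen, and no theme was tested. The SNARE proteins Ykt6, Bet1 and Vamp8, which fuse membranes, had mean differences of -0.88, -0.78 and -0.73 (3 pairs). Vps45, Vps39 and Vps28, which sort cargo to endosomes and lysosomes, had -0.97, -0.55 and -0.73. Lipa, the lysosomal acid lipase, had 6.13, 7.64 and 7.97 in shNsl1_B and 8.06, 8.93 and 8.94 in shcontrol_B, while the list of 36 lysosomal genes had 12 lower and 9 higher in each pair. Casp8 and Casp6, proteases of cell death, had -0.96 and -0.70. Enzymes that modify transfer RNA were Trmt2b with -0.97, Adat2 with -0.81, Pus7l with -0.65, Ftsj1 with -0.63 and Trmt10b with -0.58. The largest mean decrease among the agreeing probe sets, -2.17, was at a probe set without a gene symbol (17290928). It had 2.82, 4.28 and 3.20 in shNsl1_B and 4.95, 5.83 and 6.01 in shcontrol_B, and 3.42, 3.23 and 3.38 in shcontrol_A, so the shNsl1_B arrays were not below the controls of experiment A.

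More genes of the neural and mesoderm lists were higher than lower in each pair, 7 against 1 of 24 neural genes and 8 against 3 of 15 mesoderm genes, where 18.4% of all genes were higher and 22.9% were lower. Nrcam, a neural adhesion molecule, had 1.38, 1.45 and 0.67 and Nefl, a neurofilament, had 0.62, 0.83 and 0.36, while the median over 24 neural genes was 0.05, 0.18 and 0.12. The mesoderm genes had medians of 0.07, 0.23 and 0.07. Lefty1, an inhibitor of Nodal, had 0.27, 1.43 and 0.65, and Mixl1, a primitive streak gene and 1 of the 3 lower ones, had -0.45, -0.47 and -0.49.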
